A study of Mus musculus with 6 samples.

Results

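The 34 genes described here carry out or control the synthesis of cholesterol and fatty acids. They were taken by symbol from a fixed list of mevalonate, sterol and fatty acid synthesis enzymes and their regulators, and all 34 were found among the 23282 entries of the count tables and passed the filter on low counts that left 11092 genes. Their messenger RNA was measured in RAW 264.7, an established line of mouse macrophages from which osteoclasts, the fused cells that resorb bone, can be grown. All 6 samples came from day 5 of osteoclast differentiation and were sequenced with QuantSeq, which reads transcripts at their 3′ ends. The labels gave 3 samples as control and 3 as CPN, in a series titled for chaperonin 60 kDa, a folding protein. Neither the differentiation agent nor the source, dose and time of addition of the chaperonin was given there. Nothing says that the samples of this 1 line were grown as separate cultures, and p-values therefore reflect only the spread between the samples at hand, which may be technical.

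Cells make cholesterol from acetyl-CoA by way of mevalonate, farnesyl diphosphate and squalene, and the same early steps supply the isoprenoids that anchor small GTPases to membranes. Transcription of these enzymes is driven by the sterol regulatory element-binding proteins (SREBPs), which stay in the endoplasmic reticulum bound to the escort protein SCAP and the retention proteins INSIG while sterols are plentiful. When sterols fall, SCAP carries the precursor to the Golgi, proteases release its active domain, and this acts at sterol regulatory elements together with the factor NF-Y, which binds CCAAT boxes. In osteoclasts, membrane cholesterol is needed for fusion and survival, and isoprenoid synthesis is the step blocked by nitrogen-containing bisphosphonates.

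In CPN cells, 12 of the 34 genes were lower and 0 were higher than in control cells. The genes that fell were Hmgcs1 and Idi1 of the mevalonate segment, Sqle, Lss, Cyp51, Msmo1 and Nsdhl of the sterol segment, the regulators Srebf1 and Mylip, and Acly, Scd2 and Fads1 of fatty acid synthesis. Calls were made with edgeR's quasi-likelihood test at a Benjamini-Hochberg adjusted p under 0.05 over all 11092 genes. At that threshold 6.39% of all tested genes were lower and 7.62% higher, against 35.3% of the 34 genes lower. At an unadjusted edgeR p under 0.05, 20 of the 34 were lower and 0 higher. The share of all tested genes at that looser threshold was not computed, and the percentages above do not apply to it. DESeq2, with 8.14% of all tested genes lower, called 15 of the 34 lower, adding Insig1, Pmvk and Scd1. limma-voom, with 6.65% of all tested genes lower, called 12 of the 34 lower. Of these, 11 were the same genes, with Fdps in place of Idi1. Both called 0 higher. The log2 fold change, CPN minus control, was negative for 28 genes and positive for 6, with a median of -0.79 and a range from -2.27 to 0.30, while the median over all tested genes was -0.0079. All 3 CPN values lay below all 3 control values for 16 of the 34 genes, which was so for 15.7% of all tested genes. The opposite arrangement, found for 16.9% of all tested genes, occurred for 0 of the 34.

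**Figure D1:**
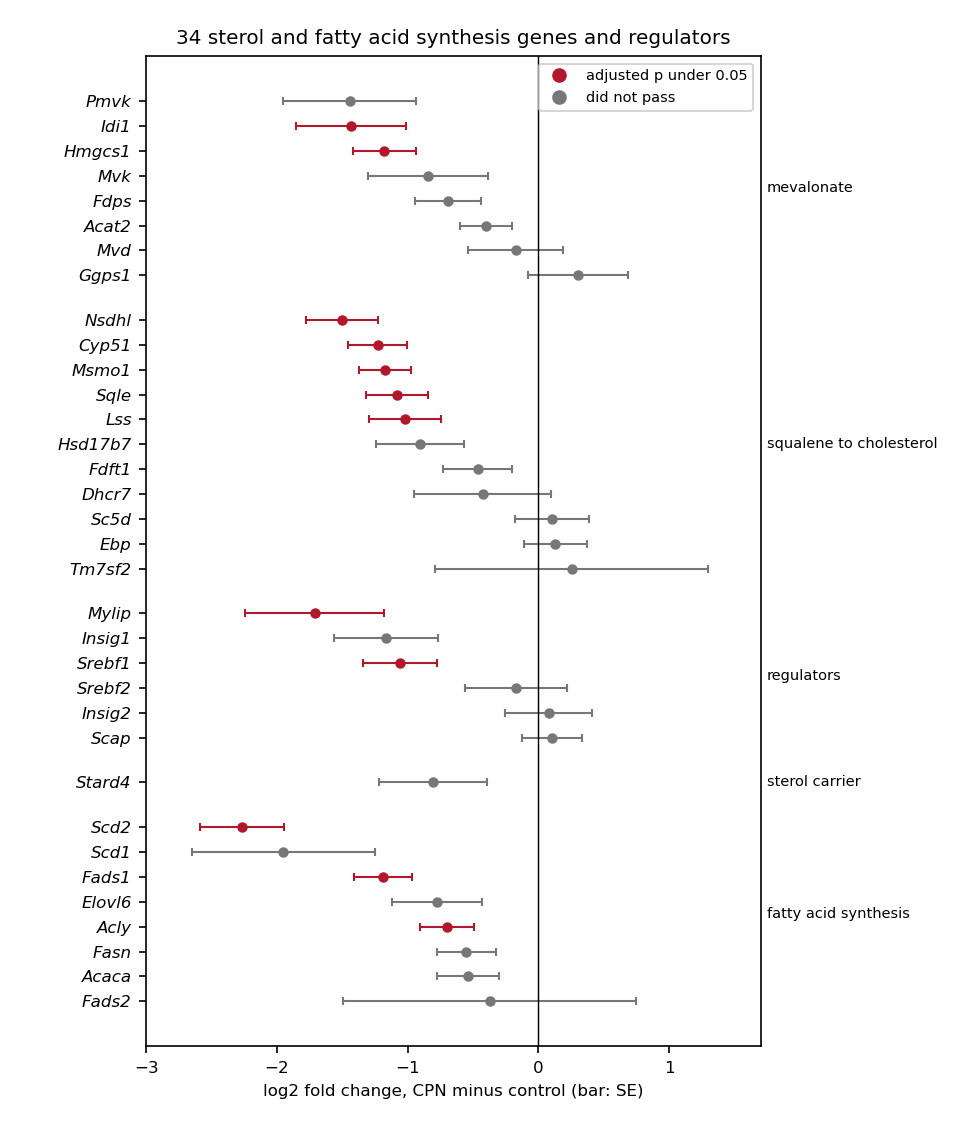
The fitted log2 fold change of each of the 34 genes, CPN minus control, with its SE as a bar, ordered by role. Red points mark the 12 genes past an adjusted p of 0.05, which lie between -2.27 for Scd2 and -0.70 for Acly, and grey points mark the 22 that did not pass.

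The promoters of these genes were read from RefSeq (GRCm38.p6) as the 250 bases before each start site. A window was found for 27 of the 34 genes, and Fdps, Fdft1, Sqle, Stard4, Scd1, Scd2 and Fads1 had none. The CCAAT box (letters CCAAT, both strands) was found in 21 of the 27 genes, or 77.8%, against 3461 of the 8482 tested genes with a window, or 40.8%. At least 2 boxes in 1 window were found for 13 of the 27 genes, or 48.1%, against 15.6% of tested genes. The 9 genes with a window that were lower in CPN included 8 with a box, and the 18 that did not pass included 13. A core of the sterol regulatory element (letters TCACNCCAC, both strands) was found for Hmgcs1 alone of the 27 genes, and in 1.21% of tested genes and 1.05% of all 32851 windows of the table. These matches describe letters in the window and not binding, and a missing match says only that those letters are absent there.

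The windows of Hmgcs1 (chr13:119690101-119690350, plus strand) and Mylip (chr13:45389492-45389741, plus strand) are shown as genes that fell and held 3 CCAAT boxes each, and that of Acly (chr11:100528001-100528250, minus strand) as a gene that fell and held 0. The windows of Fasn (chr11:120824548-120824797, minus strand), with 3 boxes of which 1 pair overlaps, and Ebp (chrX:8193513-8193762, minus strand), with 2, are shown as genes that did not pass. Each reads 5′ to 3′ along its gene and contains 0 bases of an annotated exon. Capitals mark a CCAAT box on either strand and, in Hmgcs1, also the sterol regulatory element core, which starts 137 bases before the start site between boxes that start 176 and 45 bases before it. These distances count from the RefSeq start site. GENCODE starts Hmgcs1 further downstream, at base 119690379, and distances from that start would be longer. Of the windows shown, only that of Hmgcs1 had no GENCODE transcript holding the bases tested after its start site.
Hmgcs1: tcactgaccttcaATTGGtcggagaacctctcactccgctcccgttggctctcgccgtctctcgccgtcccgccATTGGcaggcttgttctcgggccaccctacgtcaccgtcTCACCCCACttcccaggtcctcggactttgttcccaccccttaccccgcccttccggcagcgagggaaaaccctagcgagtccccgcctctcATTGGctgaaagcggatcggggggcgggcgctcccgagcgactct
Mylip: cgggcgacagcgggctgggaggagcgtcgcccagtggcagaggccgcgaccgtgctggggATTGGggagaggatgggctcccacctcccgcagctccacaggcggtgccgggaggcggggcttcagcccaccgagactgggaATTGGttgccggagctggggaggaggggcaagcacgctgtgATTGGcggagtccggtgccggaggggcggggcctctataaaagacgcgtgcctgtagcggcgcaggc
Acly: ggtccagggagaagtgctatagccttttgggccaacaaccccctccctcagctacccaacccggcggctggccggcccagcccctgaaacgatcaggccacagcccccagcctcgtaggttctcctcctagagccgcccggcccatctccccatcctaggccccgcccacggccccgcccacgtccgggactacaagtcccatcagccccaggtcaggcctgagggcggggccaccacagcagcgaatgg
Fasn: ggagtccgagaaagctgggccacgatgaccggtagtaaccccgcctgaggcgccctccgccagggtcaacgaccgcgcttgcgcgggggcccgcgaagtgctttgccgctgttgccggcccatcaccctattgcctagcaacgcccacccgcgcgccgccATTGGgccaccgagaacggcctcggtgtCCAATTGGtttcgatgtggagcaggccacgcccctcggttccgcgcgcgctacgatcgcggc
Ebp: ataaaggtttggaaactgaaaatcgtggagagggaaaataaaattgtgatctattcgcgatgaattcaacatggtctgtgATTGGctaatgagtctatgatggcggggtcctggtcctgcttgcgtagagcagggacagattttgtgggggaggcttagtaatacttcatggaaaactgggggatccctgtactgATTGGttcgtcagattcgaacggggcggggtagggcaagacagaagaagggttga

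**Figure D2:**
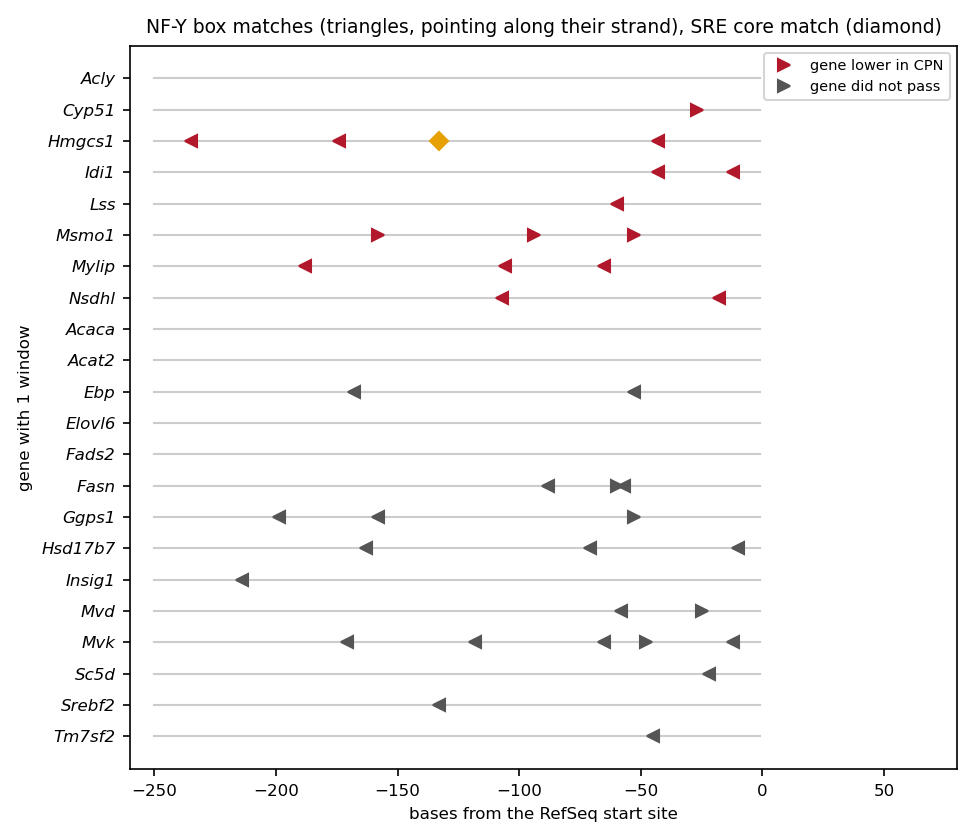
Positions of motif matches in the 250 bases before the RefSeq start site, on an axis of bases from that site, for the genes with 1 window. Triangles are CCAAT boxes pointing along their strand, in red for genes lower in CPN and grey for genes that did not pass, and the only diamond, the sterol regulatory element core, is in the Hmgcs1 row.

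The mevalonate segment turns acetyl-CoA into farnesyl and geranylgeranyl diphosphate, and 2 of its 8 genes were lower in CPN, with a segment median log2 fold change of -0.77. Levels below are counts per 1000000 of the TMM-scaled library (CPM), and a fold is the ratio of the group means. Hmgcs1 (chromosome 13, 119690379 to 119708260, mm10), the HMG-CoA synthase that makes the precursor of mevalonate, had 143, 78.1 and 118 CPM in control 1 to 3 and 48.7, 56.4 and 44.4 CPM in CPN 1 to 3. The groups did not overlap, and the CPN libraries lay closer together than the controls, of which control 2 was lowest. The mean of Hmgcs1 was 113 ± 32.6 CPM (SD, n = 3) in control and 49.9 ± 6.10 CPM (n = 3) in CPN, 2.27-fold lower, with a log2 fold change of -1.18 ± 0.24 (SE) and an edgeR adjusted p of 0.00543. It passed in each of the 6 fits that left out a library. Idi1 (chromosome 13, 8885501 to 8892451), the isomerase that makes both isoprenoid building blocks available, had 56.6, 16.4 and 48.7 CPM in control and 14.0, 10.7 and 20.3 CPM in CPN. Control 2 lay below CPN 3, so the groups overlapped. Idi1 was 2.70-fold lower on the means, with a log2 fold change of -1.43 ± 0.42 and an edgeR adjusted p of 0.0392, and its call was lost when any library other than control 2 was left out, with adjusted p from 0.000718 to 0.167 over the 6 fits. By limma-voom it did not pass (adjusted p = 0.0758).

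The other 6 genes of the segment did not pass. Fdps, the farnesyl diphosphate synthase and the enzyme that nitrogen-containing bisphosphonates inhibit, had 118, 110.1 and 127 CPM in control and 107, 55.4 and 57.8 CPM in CPN. The groups did not overlap, but CPN 1 lay next to the controls and far from the other CPN libraries. The log2 fold change of Fdps was -0.69 ± 0.25 (edgeR adjusted p = 0.0907), and -1.07 with an adjusted p of 0.0110 without CPN 1. Pmvk, the phosphomevalonate kinase, was also below every control in every CPN library, at 11.4, 19.3 and 20.9 CPM in control and 10.4, 5.24 and 3.23 CPM in CPN, and differed by a log2 value of -1.44 ± 0.51 (edgeR adjusted p = 0.0799). Without CPN 1 it passed at an edgeR adjusted p of 0.0442. With all libraries, Pmvk also passed by DESeq2 (adjusted p = 0.0414) and Fdps by limma-voom (adjusted p = 0.0375), and both passed when edgeR was run without a filter on low counts. Mvd, the decarboxylase that makes isopentenyl diphosphate, had 73.1, 88.5 and 105 CPM in control and 141, 53.3 and 42.3 CPM in CPN. Its CPN 1 value was above all controls and its other CPN values below all of them, so its log2 fold change was -0.17 ± 0.37 with all libraries and -0.90 (edgeR adjusted p = 0.0511) without CPN 1. The mevalonate kinase Mvk had a log2 fold change of -0.84 ± 0.46 and the thiolase Acat2 one of -0.40 ± 0.20, both with overlapping groups. Acat2 is uncertain because Acat3, a near copy with 10414 counts over the 6 libraries and a log2 fold change of -0.05, can share its reads. Ggps1, which makes the geranylgeranyl diphosphate used to modify small GTPases, was the single gene of the segment with a positive value, 0.30 ± 0.39, with 12.9, 23.2 and 16.4 CPM in control and 27.2, 25.5 and 12.0 CPM in CPN. Its value is uncertain, since 257 of its bases lie under Arid4b on the other strand. Arid4b had 6830 counts against 985 for Ggps1, and a log2 fold change of 0.19 that did not pass.

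From squalene to cholesterol, 5 of 11 genes were lower in CPN, and the median log2 fold change was -0.91. All CPN values lay below all control values for 6 of the 11, against 15.7% of all tested genes. The genes that fell act between the oxidation of squalene and the removal of the methyl groups of lanosterol. Sqle (chromosome 15, 59315077 to 59331192), the squalene epoxidase, had 75.2, 54.5 and 61.7 CPM in control and 32.8, 25.1 and 32.5 CPM in CPN. Lss (chromosome 10, 76531588 to 76557138), which closes the ring to lanosterol, had 44.9, 30.1 and 42.5 CPM in control and 19.6, 21.3 and 17.0 CPM in CPN. Neither gene overlapped between the groups. Sqle was 2.12-fold lower, with a log2 fold change of -1.08 ± 0.24 and an edgeR adjusted p of 0.00796, and Lss was 2.03-fold lower, at -1.02 ± 0.28 and 0.0260. The call of Sqle held in all 6 fits with a library left out, and that of Lss was lost in the 5 that kept control 2, at adjusted p up to 0.112.

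Cyp51 (chromosome 5, 4081145 to 4104746), the lanosterol demethylase, had 96.2, 71.8 and 97.6 CPM in control and 44.9, 32.4 and 36.0 CPM in CPN. Msmo1 (chromosome 8, 64718139 to 64733792), the oxygenase for the remaining methyl groups, had 187, 141 and 202 CPM in control and 88.2, 71.8 and 75.4 CPM in CPN. Nsdhl (chromosome X, 72918557 to 72958514), the dehydrogenase that follows it, had 62.8, 54.9 and 59.0 CPM in control and 23.0, 13.4 and 25.9 CPM in CPN. For all of these demethylation genes the lowest control was at least 1.5 times the highest CPN library. Cyp51 was 2.35-fold lower (log2 fold change -1.23 ± 0.23, edgeR adjusted p = 0.00289). Msmo1 was 2.25-fold lower (-1.17 ± 0.20, edgeR adjusted p = 0.00161), and Nsdhl 2.83-fold (-1.50 ± 0.28, edgeR adjusted p = 0.00293). These 3 passed in all 6 fits with a library left out. Cyp51 shares 166 bases of its gene with Akap9 on the other strand, whose log2 fold change was 0.25 without passing. Whether counting used strand is not given, so reads in that stretch may have been counted for either gene. Hsd17b7, the reductase that completes demethylation, was also lower in every CPN library than in every control, at 23.2, 21.6 and 29.2 CPM against 9.60, 16.5 and 13.4 CPM, but did not pass (-0.91 ± 0.34, edgeR adjusted p = 0.101).

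The genes of the last steps did not pass. Ebp, the sterol isomerase, had 58.5, 39.2 and 54.9 CPM in control and 61.7, 42.7 and 62.7 CPM in CPN. Sc5d, the sterol desaturase, had 36.0, 26.7 and 22.2 CPM in control and 35.6, 26.3 and 29.5 CPM in CPN. The groups of both genes overlapped throughout, with log2 fold changes of 0.13 ± 0.24 and 0.11 ± 0.28. The reductase Dhcr7 was at -0.43 ± 0.52. Tm7sf2, a sterol reductase with at most 2.65 CPM in a library, was at 0.26 ± 1.04, a spread too wide to place it, and it shares 532 bases with Vps51 on the same strand. Fdft1, the squalene synthase at the branch to sterols, had 74.1, 59.3 and 69.8 CPM in control and 32.6, 47.7 and 67.0 CPM in CPN (-0.46 ± 0.26, edgeR adjusted p = 0.297). Its value is uncertain, since 774 of its bases lie under Ctsb on the other strand, which had 85500 counts against 3023 and was higher in CPN (log2 fold change 0.58, edgeR adjusted p = 0.0494).

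**Figure D3:**
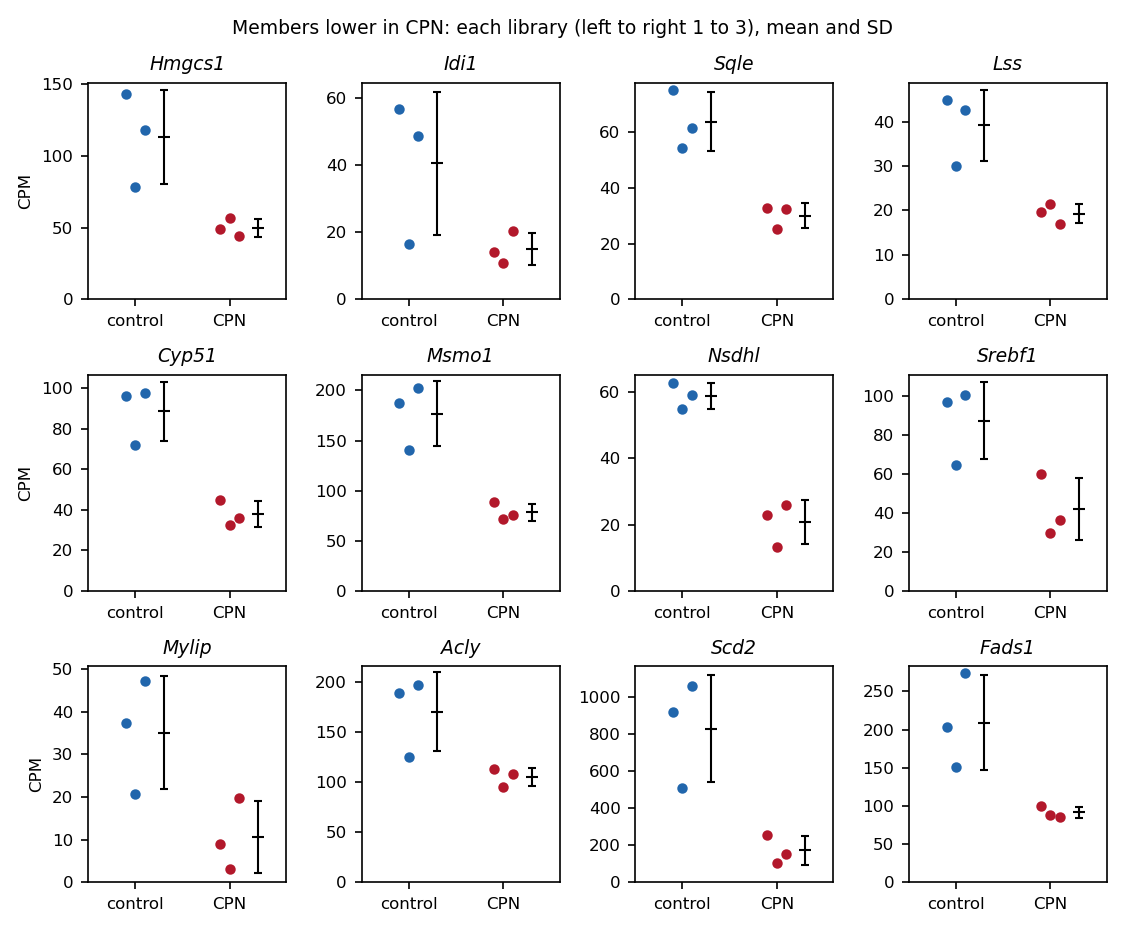
CPM of the 12 genes lower in CPN, with each library as a point (1 to 3 from left to right) and the mean and SD beside it, on axes that start at 0. For 11 of the 12 genes every CPN point lies below every control point, and Idi1 is the exception.

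Of the 6 regulators, 2 were lower and 4 did not pass. Srebf1 (chromosome 11, 60199089 to 60222581) encodes SREBP isoforms, among them a form that favours fatty acid genes. The isoforms share a 3′ end and were counted together, so which of them fell cannot be told. Srebf1 had 96.7, 64.8 and 101 CPM in control and 59.8, 29.6 and 36.5 CPM in CPN. CPN 1 lay just below control 2, and the other CPN libraries were well below every control. Srebf1 was 2.08-fold lower, with a log2 fold change of -1.06 ± 0.28 and an edgeR adjusted p of 0.0239, and the call was lost without control 1, control 3, CPN 2 or CPN 3, at adjusted p up to 0.121. It shares 109 bases with Rai1 on the other strand, whose log2 fold change was -0.03. Srebf2, which encodes the SREBP that favours sterol genes, had 45.8, 42.5 and 66.5 CPM in control and 82.0, 23.7 and 31.8 CPM in CPN. As with Mvd, its CPN 1 value was above all controls and the other CPN values were below all of them, and the log2 fold change was -0.17 ± 0.39, or -0.90 (edgeR adjusted p = 0.0959) without CPN 1.

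Insig1, a retention protein that is itself a SREBP target, had 43.3, 16.1 and 23.6 CPM in control and 14.4, 13.2 and 9.30 CPM in CPN. The groups did not overlap, though control 2 lay close to CPN 1. Its log2 fold change was -1.17 ± 0.40 (edgeR adjusted p = 0.0719), and it passed without control 2 (edgeR adjusted p = 0.0131) and by DESeq2. Insig2, its paralog, had 20.0, 32.7 and 22.6 CPM in control and 18.7, 23.4 and 37.3 CPM in CPN (0.08 ± 0.33), and Scap, the escort protein, had 47.8, 55.2 and 62.3 CPM in control and 57.6, 47.0 and 73.3 CPM in CPN (0.11 ± 0.23). Both genes overlapped between the groups. Mylip (chromosome 13, 45389742 to 45412022), a ubiquitin ligase that marks lipoprotein receptors for degradation and is a target of the liver X receptors (LXRs), had 37.5, 20.8 and 47.1 CPM in control and 9.12, 3.14 and 19.8 CPM in CPN. CPN 3 lay just under control 2. Mylip was 3.28-fold lower, with a log2 fold change of -1.71 ± 0.53 and an edgeR adjusted p of 0.0479, and the call was lost without control 1, control 3, CPN 1 or CPN 2, at adjusted p up to 0.188. Stard4, a cytosolic cholesterol carrier, had 26.8, 17.6 and 41.6 CPM in control and 19.0, 8.38 and 21.8 CPM in CPN, with overlapping groups and a log2 fold change of -0.80 ± 0.41 that did not pass.

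Fatty acid synthesis had 3 of 8 genes lower, all 8 log2 fold changes negative, and a median of -0.74. Scd2 (chromosome 19, 44293674 to 44306864), a stearoyl-CoA desaturase that makes monounsaturated fatty acids, had 921, 509 and 1062 CPM in control and 258, 106 and 154 CPM in CPN. Every control was well above every CPN library, with control 2 the lowest control and CPN 1 the highest CPN. The mean of Scd2 was 831 ± 287 CPM (SD, n = 3) in control and 173 ± 77.4 CPM (n = 3) in CPN, 4.81-fold lower, with a log2 fold change of -2.27 ± 0.32 and an edgeR adjusted p of 0.000477, the largest drop among the 34 genes. Its paralog Scd1 had 30.3, 8.98 and 27.3 CPM in control and 12.0, 4.19 and 0.992 CPM in CPN, and control 2 lay below CPN 1. The log2 fold change of Scd1 was -1.95 ± 0.70 (edgeR adjusted p = 0.0877), and it passed without control 2, without CPN 1 and by DESeq2 (adjusted p = 0.0254).

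Fads1 (chromosome 19, 10182888 to 10196877), a desaturase of polyunsaturated fatty acids, had 203, 151 and 274 CPM in control and 100.4, 88.5 and 86.0 CPM in CPN. The groups did not overlap, and Fads1 was 2.28-fold lower (log2 fold change -1.19 ± 0.22, edgeR adjusted p = 0.00301). The calls of Scd2 and Fads1 held in all 6 fits with a library left out. Fads2, the partner desaturase beside Fads1 on the chromosome, had between 0.479 and 3.97 CPM in every library, too little to place its log2 fold change of -0.37 ± 1.12. Acly (chromosome 11, 100476353 to 100528000), the lyase that supplies cytosolic acetyl-CoA to both pathways, had 189, 125 and 197 CPM in control and 113, 95.2 and 108 CPM in CPN. The groups did not overlap and differed 1.62-fold (log2 fold change -0.70 ± 0.21, edgeR adjusted p = 0.0394), a call that was lost when any library other than control 2 was left out, at adjusted p up to 0.185.

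The core enzymes of the chain did not pass. Acaca, the acetyl-CoA carboxylase, had 57.9, 42.8 and 50.1 CPM in control and 39.6, 34.6 and 29.8 CPM in CPN, without overlap (-0.54 ± 0.24, edgeR adjusted p = 0.165). Fasn, the fatty acid synthase, had 164, 121 and 192 CPM in control and 129, 114 and 82.4 CPM in CPN (-0.55 ± 0.23, edgeR adjusted p = 0.136). Elovl6, the elongase that feeds the desaturases, had 48.4, 20.2 and 35.1 CPM in control and 15.1, 21.6 and 23.9 CPM in CPN (-0.77 ± 0.35, edgeR adjusted p = 0.171). Control 2 was the library that made Fasn and Elovl6 overlap, and without it both were lower, at edgeR adjusted p of 0.0282 and 0.0335.

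Control 2 and CPN 1 brought the groups closer together across the genes. Control 2 was the lowest control for 27 of the 34 genes, against 38.5% of all tested genes, and CPN 1 was the highest CPN library for 20 of 34, against 34% of all tested genes. Summed over the 34 genes, the level was 3167, 2189 and 3439 CPM in control 1 to 3 and 1753, 1217 and 1359.6 CPM in CPN 1 to 3. For the 19 mevalonate and sterol genes alone it was 1233, 962 and 1234 CPM in control and 823, 604 and 643 CPM in CPN. Both sums were lower in every CPN library than in every control. Without control 2, 16 of the 34 genes were lower, adding Insig1, Fasn, Elovl6 and Scd1, against 7.18% of all tested genes in that fit. Without CPN 1 the count did not rise: 11 of the 34 were lower, against 4.07% of all tested genes. These were 8 of the 12 genes called with all libraries, with Fdps, Pmvk and Scd1 added. Hmgcs1, Sqle, Cyp51, Msmo1, Nsdhl, Scd2 and Fads1 passed in all 6 fits with a library left out. In simulated counts of the same design, 31 of 103 genes changed 2-fold and 68 of 92 changed 4-fold were called. The simulation left 10622 of 10817 genes unchanged, whereas 14% of tested genes were called in the data. The cutoff of the adjusted p depends on the share of changed genes, so these rates may be too low for the data. A gene that did not pass here may still differ by a fold of this size.

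**Figure D4:**
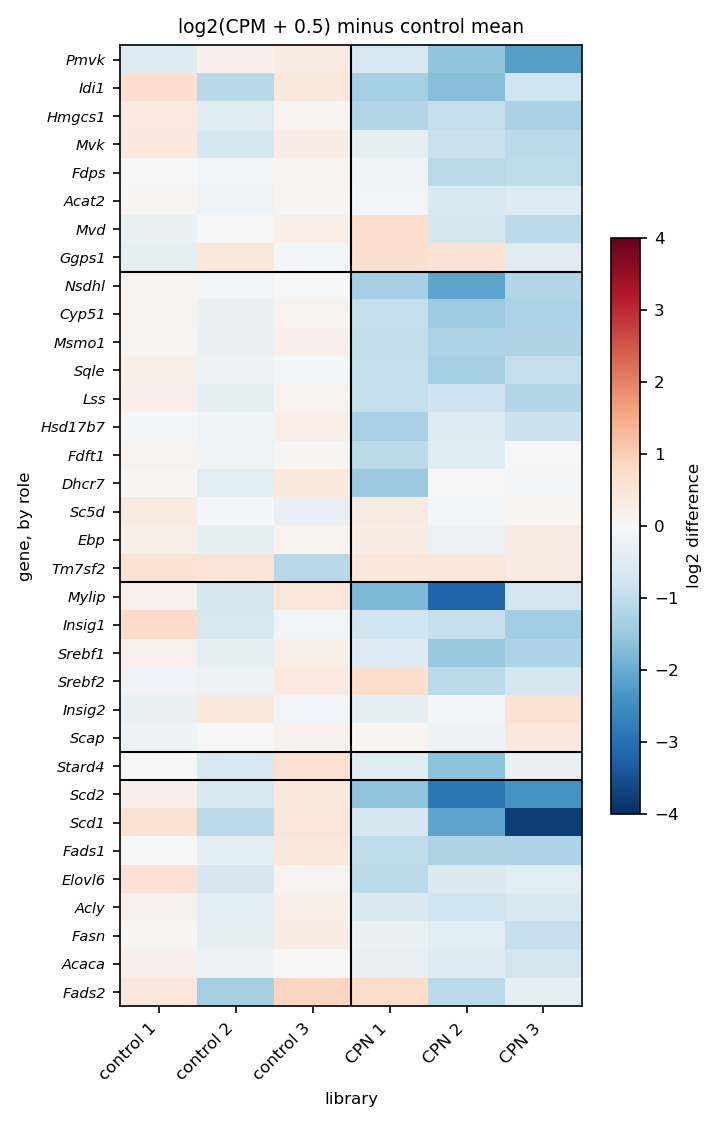
Level of each of the 34 genes in each library, as log2(CPM + 0.5) minus the control mean, with the control libraries left of the line, the CPN libraries right of it and genes ordered by role. The CPN columns are mostly below 0, control 2 is the lowest control column for 27 genes, and Mvd and Srebf2 stand above 0 in CPN 1.

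The 6 libraries held between 7957228 and 9713938 counts. Among 707 genes of low count the share of zeros was 14.0% in CPN 1 and 23.8% in control 3, and between 36.9% and 41.2% in the others. Without both of those libraries 446 genes were called in all, and 3 of the 34 were lower: Cyp51, Msmo1 and Scd2. All 7 macrophage markers were high enough to test in these cells labelled macrophage. Of these, 3 (Adgre1, Itgam and Cd14) were higher in CPN, or 42.9%, against 7.62% of all tested genes. Osteoclast genes were present in both groups and all 7 tested were lower in CPN, against 6.39% of all tested genes. Their summed level was from 3848 to 3985 CPM in control and from 862 to 1365 CPM in CPN, while Calcr and Itgb3 were too low to test. Of 15 genes of dividing cells, 14 were lower in CPN, or 93.3%, against 6.39% of all tested genes. The 15 genes summed to 2041, 1165 and 1853 CPM in control and 537, 492 and 625 CPM in CPN. Control 2 was the lowest control for that sum, as for most of the 34 genes. The part of the osteoclast and dividing cell genes in the lower sterol and fatty acid genes was not tested, and in bulk RNA fewer cells of a type and less RNA per cell cannot be told apart. The 5 adipocyte markers were at 0 in every library, where 3 counts correspond to between 0.309 and 0.377 CPM. Of the granulocyte markers S100a8 stood at 17.9 to 34.6 CPM in CPN and at most 0.117 CPM in control, while S100a9 had 1 count in CPN 3 alone, Mpo 6 counts in CPN 1 alone, and Elane, Ngp and Camp were at 0 in every library. Of the stromal markers Dcn was at 7.73 to 12.2 CPM in CPN and at 0 in control. The other 4 did not follow it: Col1a1 had 4.43 CPM in control 2, 0.840 CPM in CPN 1 and 2.75 CPM in CPN 2, Col3a1 had 13 counts in each of control 2 and CPN 2, and Col1a2 and Pdgfra at most 2 counts, in control alone. The part of these markers was not tested. The hepatocyte, lymphocyte and epithelial lists summed to at most 6.96, 0.785 and 1.64 CPM in a library.

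Other genes of the pathway were read from companion lists chosen by function. Of 15 genes that process SREBP or sense sterols, 2 were higher by edgeR, DESeq2 and limma-voom alike, and 0 were lower. These are 13.3%, against 7.62% of all tested genes by edgeR. At an unadjusted p under 0.05, 4 were higher and 0 lower by each tool. No share of all tested genes was computed at that threshold. Erlin1, an endoplasmic reticulum protein that takes part in the degradation of sterol-regulated proteins, had 33.7, 43.2 and 27.9 CPM in control and 89.8, 68.2 and 95.4 CPM in CPN (log2 fold change 1.27 ± 0.24, edgeR adjusted p = 0.00324). Syvn1, a ubiquitin ligase of the same membrane, had 114, 40.0 and 78.7 CPM in control and 208, 167 and 152 CPM in CPN (1.18 ± 0.30, edgeR adjusted p = 0.0207). Neither gene overlapped between the groups. The call of Syvn1 was lost without control 3, CPN 1 or CPN 2, while that of Erlin1 held in all 6 such fits.

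Of 19 tested genes among other SREBP targets and lipid synthesis enzymes, 4 were lower (21.1%, against 6.39% of all tested genes), 3 were higher (15.8%, against 7.62%) and 12 did not pass. The phosphatidate phosphatase Lpin1 was 2.92-fold lower (log2 fold change -1.55 ± 0.37, edgeR adjusted p = 0.0137), with 54.1, 24.2 and 47.3 CPM in control and 16.7, 8.78 and 17.5 CPM in CPN. Lbr, a nuclear envelope protein that is also a sterol reductase of the same step as Tm7sf2, had 145, 98.5 and 133 CPM in control and 67.7, 64.4 and 71.1 CPM in CPN (-0.89 ± 0.20, edgeR adjusted p = 0.0104). The acyl-CoA synthetase Acsl3 (-0.91 ± 0.25) and the cytochrome b5 reductase gene Cyb5r3, which serves the desaturases (-0.69 ± 0.20), were lower too, at edgeR adjusted p of 0.0266 and 0.0395. All of these were below every control in every CPN library, and each call was lost in 3 or 4 of the 6 fits with a library left out. On the other side, Por, the reductase that supplies electrons to Cyp51 and Sqle, had 128, 207 and 127 CPM in control and 349, 351 and 425 CPM in CPN (1.28 ± 0.21, edgeR adjusted p = 0.00134). Fabp5, a fatty acid-binding protein, was 3.97-fold higher (1.99 ± 0.26, edgeR adjusted p = 0.000241), and Me1, the malic enzyme that makes NADPH, 1.87-fold higher (0.90 ± 0.25, edgeR adjusted p = 0.0301). The calls of Por and Fabp5 held with each library left out, and that of Me1 in 2 of 6 fits.

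Of 16 tested genes of the oxysterol and LXR axis, 3 were higher (18.8%, against 7.62% of all tested genes), 1 was lower (6.25%, a share near the 6.39% of all tested genes) and 12 did not pass. Gramd1b, a carrier that moves plasma membrane cholesterol to the endoplasmic reticulum, had 6.67, 4.43 and 7.48 CPM in control and 26.2, 27.8 and 26.1 CPM in CPN (2.10 ± 0.36, edgeR adjusted p = 0.00187). Npc1, which exports cholesterol from lysosomes, had 55.8, 67.7 and 48.5 CPM in control and 138, 126 and 106 CPM in CPN (1.11 ± 0.21, edgeR adjusted p = 0.00319). Both kept their calls with each library left out. Soat1, which esterifies cholesterol for storage, had 176, 359 and 218 CPM in control and 469, 438 and 416 CPM in CPN (0.81 ± 0.23, edgeR adjusted p = 0.0323), and Osbpl8, an oxysterol-binding protein, was lower (-0.72 ± 0.21, edgeR adjusted p = 0.0385). Those calls held in 1 and 2 of the 6 fits. The oxysterol-forming enzyme genes Ch25h and Cyp46a1 and the oxysterol hydroxylase gene Cyp7b1 were at 0 in every library. Cyp27a1, another oxysterol-forming enzyme gene, was expressed, at 32.9, 47.0 and 38.1 CPM in control and 32.9, 39.0 and 18.4 CPM in CPN. It did not pass (-0.39 ± 0.30, edgeR adjusted p = 0.478). Of 13 tested genes that use isoprenoids, edgeR called 0. DESeq2, with 1052 of all 11092 tested genes higher, called Dhdds and Nus1 higher. limma-voom, with 936 of the 11092 higher, called Nus1 higher. At an unadjusted edgeR p under 0.05, 4 of the 13 were higher and 0 lower, without a computed share of all tested genes.

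**Figure D5:**
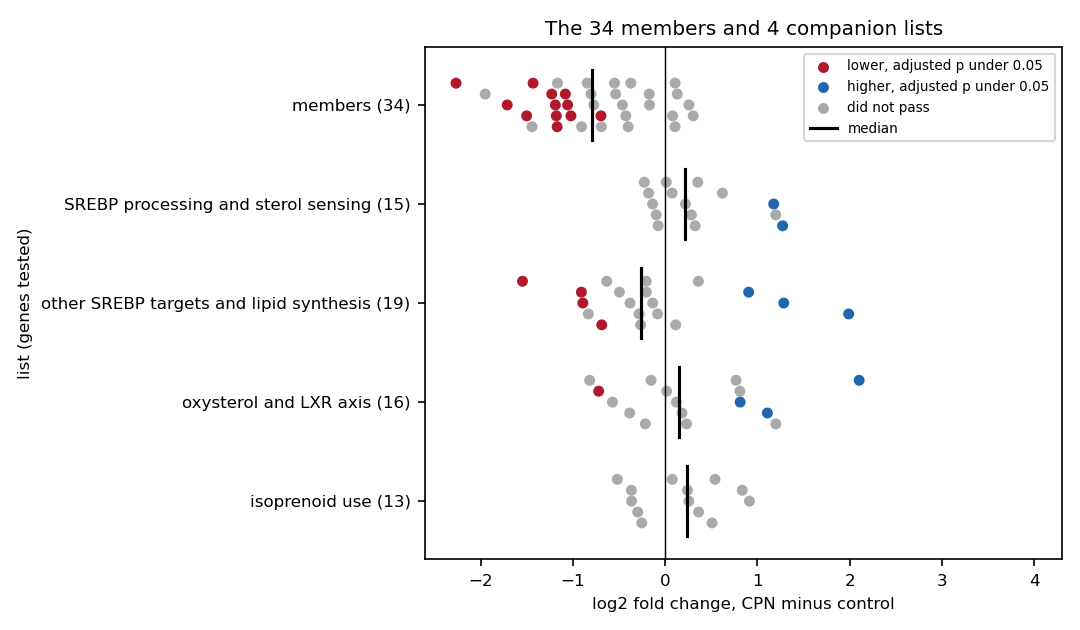
Log2 fold change, CPN minus control, of every tested gene in the 34-gene set and in the 4 companion lists, with a line at each list's median. Red points were lower and blue points higher at an adjusted p under 0.05, and the medians are -0.79 for the 34 genes, 0.22 for SREBP processing, -0.27 for other targets, 0.15 for the oxysterol axis and 0.24 for isoprenoid use.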

How the data were processed

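Counts of reads per gene were deposited by the authors, 1 table per sample, with 23282 entries and 23238 symbols. Entries that shared a symbol (79) were kept apart. Reads were aligned with Bowtie2 to mm10 and counted with bedtools, per the submitters' processing notes. Libraries were made with the QuantSeq kit from TRIzol-extracted RNA, per the labels' protocols. The sources used here do not give the annotation, whether counting used strand, or how duplicates and multiply aligned reads were treated.

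Library totals ran from 7957228 to 9713938, and the ribosomal RNA entry Rn45s took between 9.04% and 16.5% of them. In R 4.3.3, edgeR 4.0.16 was used with TMM scaling, filterByExpr (minimum count 10, minimum total 15) and the quasi-likelihood test of 3 CPN against 3 control samples, with Benjamini-Hochberg adjustment over 11092 genes. The SE of a log2 fold change came from the same fit. The edgeR step was tested on simulated data over 10817 genes, where 31 of 103 genes set to a 2-fold change passed, as did 68 of 92 set to 4-fold and 10 of 10622 left as they were. Alternatives were DESeq2 1.42.0, limma 3.58.1 (voom), other scalings and filters, a test against a fold of 1.5, Rn45s removed, a replicate block and the omission of each library in turn. The fit without both control 3 and CPN 1 was chosen after seeing the data.

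All 34 genes are named with their values, by role. Of the companion lists, genes past the threshold are named, and other genes only where a count of 3 or fewer, an absence or an overlap is stated. The 34 genes and the lists were chosen with earlier results of these data known, so no test was made over a list. Gene positions and overlaps come from GENCODE for mm10, and promoter sequences from the RefSeq table, of which the 250 bases before the start were used. The promoters shown were picked after their motifs were seen, among windows without exon bases.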

Additional observations from a re-analysis of the deposited data

How the results depend on the processing

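With other scalings, filters and tools the 34 genes kept 0 called higher. Without a filter on low counts the mevalonate genes lower were 4 of 8. The test against a fold of 1.5 called 697 genes, 424 higher and 273 lower, and of the 34 genes 5 lower: 0 mevalonate, 3 sterol, 0 regulator and 2 fatty acid genes. Without both control 3 and CPN 1 there were 446 calls, 273 higher and 173 lower, and 3 lower of the 34: 0 mevalonate, 2 sterol, 0 regulator and 1 fatty acid gene. The test against a fold of 1.5 is stricter by construction and so calls fewer genes. The fit without both libraries also had fewer samples per group, and the part of those 2 libraries themselves was not tested.

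With 1 library left out, calls ran from 884 to 1954 in all, 525 to 1131 higher and 359 to 823 lower. Among the 34 genes 7 to 16 were lower, among the mevalonate genes 1 to 3, sterol genes 4 to 5, regulators 0 to 3 and fatty acid genes 2 to 6.

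With library totals alone as the scale, the all-gene median log2 value was -0.13. This scale gave 690 calls higher and 914 lower in place of 845 and 709, and called 13 of the 34 lower. Sc5d (-0.0066), Scap (-0.012) and Insig2 (-0.037) were below 0 on this scale, but lay above that median. No gene that turned sign passed in either fit. Without both control 3 and CPN 1 the turned values were -0.21 for Tm7sf2, -0.17 for Sc5d and 0.18 for Dhcr7. With 1 library left out, values ranged from -0.90 to 0.13 for Mvd, -0.20 to 0.59 for Tm7sf2, -0.011 to 0.30 for Ebp, -0.041 to 0.32 for Sc5d, -0.90 to 0.15 for Srebf2, -0.072 to 0.26 for Scap, -0.25 to 0.33 for Insig2 and -1.26 to 0.17 for Fads2.

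The labels do not say whether same-numbered samples shared a culture or batch. Correlations of their deviations from the group mean were -0.051, 0.020 and 0.028, and those of differently numbered samples ran from -0.067 to 0.058. With 3 samples per group these values cannot exclude a weak pairing. The replicate block gave 1326 calls and 10 of the 34 lower, without Lss and Acly. Depth and excess zeros limit the least abundant genes, Tm7sf2 and Fads2.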
